A study of Rattus norvegicus with 18 samples.

Results

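Exposure of primary rat hepatocytes, the parenchymal cells of the liver, for 6 h left 6 of 30897 listed transcripts more abundant with both acetaminophen and carbon tetrachloride but not with trichloroethylene. The 6 were chosen by their measured levels, in TPM (abundance corrected for transcript length and scaled to the same total in every library). A transcript was taken when its mean in the vehicle control was at least 2 TPM, its mean with acetaminophen and its mean with carbon tetrachloride were each at least 1.4 times the control mean, its mean with trichloroethylene was at most 1.2 times the control mean, and every acetaminophen and carbon tetrachloride library lay above every control library. The differences of these 3 compounds from the control are therefore a description, given without a test. The dioxin TCDD played no part in the choice, although its comparison uses the same control libraries.

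The series holds 18 libraries of such hepatocytes, each kept for 6 h in medium with 0.1% DMSO: 3 with the vehicle alone (Control), 4 with acetaminophen at 3 mM (APAP), 3 with carbon tetrachloride (CCl4, with no dose in the labels), 4 with trichloroethylene at 1 mM (TCE) and 4 with 2,3,7,8-tetrachlorodibenzo-p-dioxin at 1 nM (TCDD). The labels describe concentrations that cost few cells yet altered albumin output and cytochrome P450 activity, in a text that does not name CCl4. The labels give no age, sex or strain of the animals and leave the source of the replicates (animals, cultures or wells) open. The p-values below therefore measure the spread between these libraries only, and that spread may be technical. In bulk RNA, fewer cells of a type and less RNA per cell cannot be told apart.

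Hepatocytes turn acetaminophen into a reactive quinone imine with cytochromes P450, and that product is captured by glutathione until the store runs low. Carbon tetrachloride is reduced by cytochromes P450 to a trichloromethyl radical, which starts lipid peroxidation in membranes. Trichloroethylene is also oxidised by cytochromes P450 and conjugated with glutathione, whereas TCDD acts mainly as a ligand of the aryl hydrocarbon receptor, a transcription factor. The deposited tables do not pair transcript identifiers with gene names, and 0 identifiers matched the RefSeq gene, promoter or miRNA tables used here. The 6 transcripts are therefore given by identifier and length, without a gene, a role, a position or a sequence, and the hepatocyte label was not checked against marker genes.

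Of the 30897 transcripts, 12808 had a control mean of at least 2 TPM. Among these, 582 reached the minimum ratio with APAP and 385 with CCl4, and 81 reached both. Of the 81, 68 were above the limit with TCE and 13 were not. Libraries overlapped in 7 of the 13, which left the 6.

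**Figure D1:**
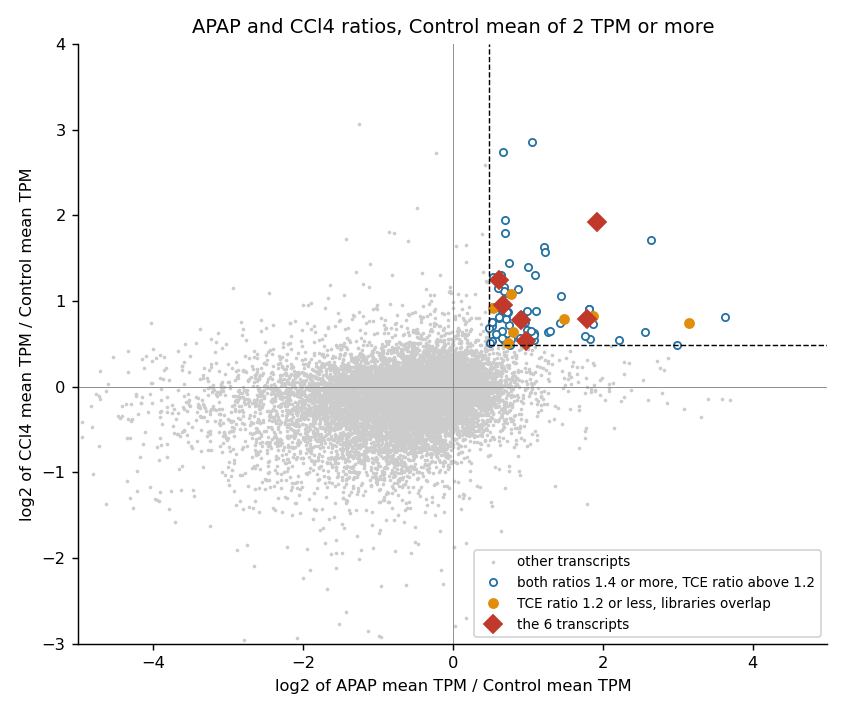
Each point is a transcript with a control mean of 2 TPM or more, with the log2 ratio of the APAP mean to the Control mean on the x axis and that of the CCl4 mean on the y axis; dashed lines mark the minimum ratio of 1.4. The 6 transcripts (diamonds) lie among the 81 beyond both lines, most of which (open circles, 68) were also above the limit with TCE; 12749 transcripts are drawn, 22 fall outside the axes and 37 were at 0 in the APAP, CCl4 or TCE group.

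The 6 spanned a wide range of abundance in the control. ENSRNOT00000025988.4, of 640 bases, averaged 1042 TPM and ranked 140 of the 12808 by control mean, and ENSRNOT00000025067.6, of 2562 bases, averaged 419 TPM and ranked 325. ENSRNOT00000061950.4, of 2101 bases, averaged 79.1 TPM, and ENSRNOT00000044788.4, of 2027 bases, averaged 51.5 TPM. The least abundant were ENSRNOT00000083472.1, of 925 bases, at 24.6 TPM and ENSRNOT00000067455.3, of 3739 bases, at 17.1 TPM. The lengths had no common size: the quartiles of the 12808 were 1291 and 3171 bases around a median of 2017, and 2 of the 6 were shorter than the lower quartile and 1 longer than the upper. Below, each is called by its length.

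Total estimated counts were 9280367 to 11479466 in 17 libraries and 6563387 in TCDD replicate 1, which also listed 27416 transcripts above 0 against 19151 to 19801 elsewhere. TCDD replicate 1 is shown but enters no mean, and TCDD means are of replicates 2 to 4. In the other 17 libraries the first principal component (65.7% of variance) set the 4 APAP libraries apart. The second (8.39%) split the controls, with loadings of 0.42 and 0.58 on Control replicates 1 and 2 and -0.07 on Control replicate 3. It also parted APAP replicate 2 (0.30) from APAP replicate 4 (-0.28), and TCE replicate 4 (0.27) from the other TCE libraries (-0.23 to -0.14). The chi-square per degree of freedom between Control replicates 2 and 3 (20) was as high as between TCE replicate 4 and the other TCE libraries (14.4 to 18.7). Between APAP replicates 2 and 4 it was 29.1, and between TCDD replicate 4 and TCDD replicates 2 and 3 it was 30.85 and 28.35. The third (4.68%) carried its largest loadings on TCDD replicate 4 (0.66) and TCE replicate 4 (0.41). Log2 CPM of those libraries correlated across transcripts with the rest of their groups at 0.964 to 0.970 and 0.962 to 0.968, which describes libraries measured on the same transcripts. The control libraries enter every ratio below. Without Control replicate 2 the 925-base transcript left the set, and without Control replicate 3 the 2027-base transcript left it.

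The 925-base transcript ENSRNOT00000083472.1 had the highest ratios with both compounds. It stood at 22.1, 29.6 and 22.2 TPM in the control libraries, at 80.8, 101.0, 99.1 and 94.4 TPM with APAP, and at 92.1, 95.7 and 91.7 TPM with CCl4. The APAP mean of 93.8 ± 9.09 TPM (SD, n = 4) was 3.81 times and the CCl4 mean of 93.2 ± 2.24 TPM (SD, n = 3) 3.78 times the control mean of 24.6 ± 4.31 TPM (SD, n = 3). With TCE it stood at 26.7, 21.6, 22.7 and 36.7 TPM, of which the first 3 lay within or just below the control range and replicate 4 lay above it. The estimated counts behind these values were 137 to 684 per library.

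The 640-base transcript ENSRNOT00000025988.4 was the most abundant of the 6 and the closest to the limit for TCE. Control libraries stood at 1027, 1040 and 1060 TPM, APAP libraries at 2008, 2089, 1815 and 1927 TPM, and CCl4 libraries at 1821, 1720 and 1804 TPM. Its APAP mean of 1960 ± 117 TPM (SD, n = 4) was 1.88 times and its CCl4 mean of 1782 ± 54.3 TPM (SD, n = 3) 1.71 times the control mean of 1042 ± 16.5 TPM (SD, n = 3). APAP and CCl4 libraries overlapped, and all 7 lay far above the control. TCE replicates 1 to 3 stood at 1102, 1074 and 1038 TPM, beside the control, but TCE replicate 4 stood at 1737 TPM, within the range of the CCl4 libraries. The TCE ratio was 1.19 with that library and 1.03 without it, and without TCE replicate 1, 2 or 3 in its place the transcript exceeded the limit and left the set.

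Acetaminophen gave the higher level in the 3739-base and 2027-base transcripts. ENSRNOT00000067455.3 stood at 17.3, 20.8 and 13.3 TPM in the control, 54.0, 78.8, 58.6 and 45.7 TPM with APAP, and 29.4, 28.2 and 31.4 TPM with CCl4. The APAP mean of 59.3 ± 14.1 TPM (SD, n = 4) was 3.46 times the control mean, and the CCl4 mean of 29.7 ± 1.59 TPM (SD, n = 3) was 1.73 times that mean. All 4 APAP libraries lay above the 3 CCl4 libraries, and TCE libraries (13.7, 12.6, 15.8 and 24.96 TPM) overlapped the control.

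ENSRNOT00000044788.4, of 2027 bases, stood at 51.0, 55.7 and 47.7 TPM in the control, 100.5, 108.3, 101.7 and 95.6 TPM with APAP, and 71.7, 73.6 and 77.7 TPM with CCl4. The APAP mean of 101.5 ± 5.23 TPM (SD, n = 4) was 1.97 times and the CCl4 mean of 74.4 ± 3.08 TPM (SD, n = 3) 1.44 times the control mean, the lowest CCl4 ratio of the 6. The APAP and CCl4 libraries did not overlap. Its TCE libraries were the least spread of the 6, at 56.9, 56.5, 53.4 and 56.1 TPM, with a mean 1.08 times that of the control and ranges that overlapped.

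Carbon tetrachloride gave the higher TPM in the 2562-base and 2101-base transcripts. ENSRNOT00000025067.6 had the tightest control values, at 416, 420 and 421 TPM. It stood at 654, 646, 645 and 613 TPM with APAP and at 966, 995 and 1018 TPM with CCl4. The APAP mean of 639.5 ± 18.2 TPM (SD, n = 4) was 1.53 times and the CCl4 mean of 992.8 ± 26.2 TPM (SD, n = 3) 2.37 times the control mean. The 3 groups were separate from each other, and TCE libraries stood at 473, 464, 426 and 293 TPM, the first 3 above the control libraries and replicate 4 below them. This was the deepest measured of the 6, with 5461 to 22150 estimated counts per library (4346 in TCDD replicate 1), and its counts were whole numbers in all 18 libraries, as they are where no reads are divided with other transcripts.

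ENSRNOT00000061950.4, of 2101 bases, was the most variable. It stood at 65.8, 76.6 and 94.9 TPM in the control, 112.5, 131.5, 132.6 and 125.8 TPM with APAP, and 140.1, 155.1 and 163.2 TPM with CCl4. The APAP mean of 126 ± 9.23 TPM (SD, n = 4) was 1.59 times and the CCl4 mean of 153 ± 11.7 TPM (SD, n = 3) 1.93 times the control mean. TCE libraries stood at 118.6, 91.8, 54.0 and 17.3 TPM, from above the highest control library to below the lowest. Its TCE ratio of 0.890 is thus a mean of 4 values that disagree, and it was 1.11 without replicate 4.

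**Figure D2:**
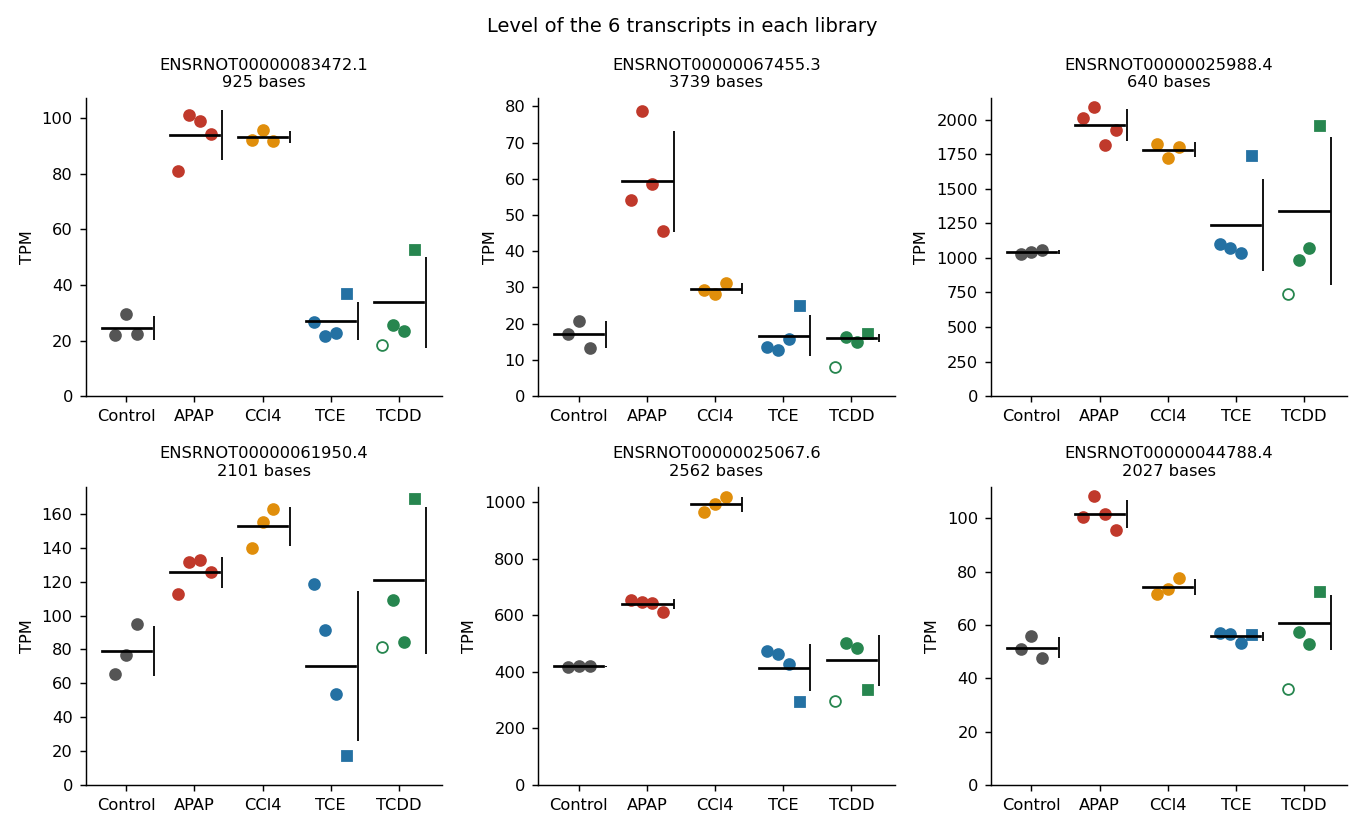
The y axis of each panel gives TPM, from 0, and each point is a library, with the group mean (horizontal bar) and SD (vertical bar; TCDD replicates 2 to 4). Squares are replicate 4 of TCE and of TCDD and the open circle is TCDD replicate 1, left out of the mean; APAP and CCl4 points lie above all Control points, as the rule requires, while TCE replicate 4 lies outside the range of TCE replicates 1 to 3 in all but the 2027-base transcript.

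Because reads that match several transcripts are divided among them, the level of a transcript can move with that of a similar one. Transcripts that exchange reads among themselves alone have estimated counts that add up to a whole number, so such sets were sought as sums that were whole in all 18 libraries within 0.03. A set of 2 or 3 transcripts was found for 4 of the 6. The 2562-base transcript needed none, and for the 3739-base transcript no set of 2 or 3 was found, so its partners stay unknown.

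The 925-base transcript formed a set with a transcript of 813 bases, and the pair differed between the compounds. The 813-base transcript stood at 13.3, 7.32 and 15.0 TPM in the control, at 135 to 163 TPM with APAP and at 19.1 to 23.95 TPM with CCl4. Its mean was 12.4 times the control mean with APAP and 1.76 times with CCl4, where the 925-base transcript had 3.81 and 3.78. Summed, the pair was at 6.599 times the control with APAP, 3.12 times with CCl4 and 1.199 times with TCE (1.09 without TCE replicate 4). The sum thus met the ratio limits, and the near equality of APAP and CCl4 held for the 925-base transcript and not for the pair.

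The 2101-base transcript formed a set with transcripts of 2456 and 2404 bases, and made up 49.4% of their summed TPM in the control. The 2456-base transcript was also low in TCE replicates 3 and 4 (32.6 and 19.4 TPM, against 105 and 71.8 TPM in replicates 1 and 2) and high in TCDD replicate 4 (162 TPM, against 94.1 and 57.3 TPM in replicates 2 and 3). The sum ranged from 37.1 to 224 TPM over the TCE libraries, so the spread of these libraries was present in the sum as well. Summed, the ratios were 1.343 with APAP and 1.615 with CCl4, and the APAP value is below the minimum of 1.4. With TCE the summed ratio was 0.80, and 0.989 without TCE replicate 4.

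The 640-base transcript made up 99.7% of its set, and adding the partner of 671 bases moved the TCE ratio from 1.19 to 1.21, just past the limit. Without TCE replicate 4 the ratio of that sum was 1.05, within the limit. The 671-base partner stood at 0 to 6.76 TPM in the control, 3.21 to 10.3 TPM with APAP, 16.4 to 28.7 TPM with CCl4, 14.1 to 40.2 TPM with TCE and 30.8 to 38.3 TPM with TCDD. The 2027-base transcript made up 87.8% of its set, whose sum had ratios of 1.89 with APAP, 1.48 with CCl4 and 1.11 with TCE. Of the 4 sets, the sums of 2 met the ratio limits and those of 2 did not, 1 of them through TCE replicate 4 alone.

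**Figure D3:**
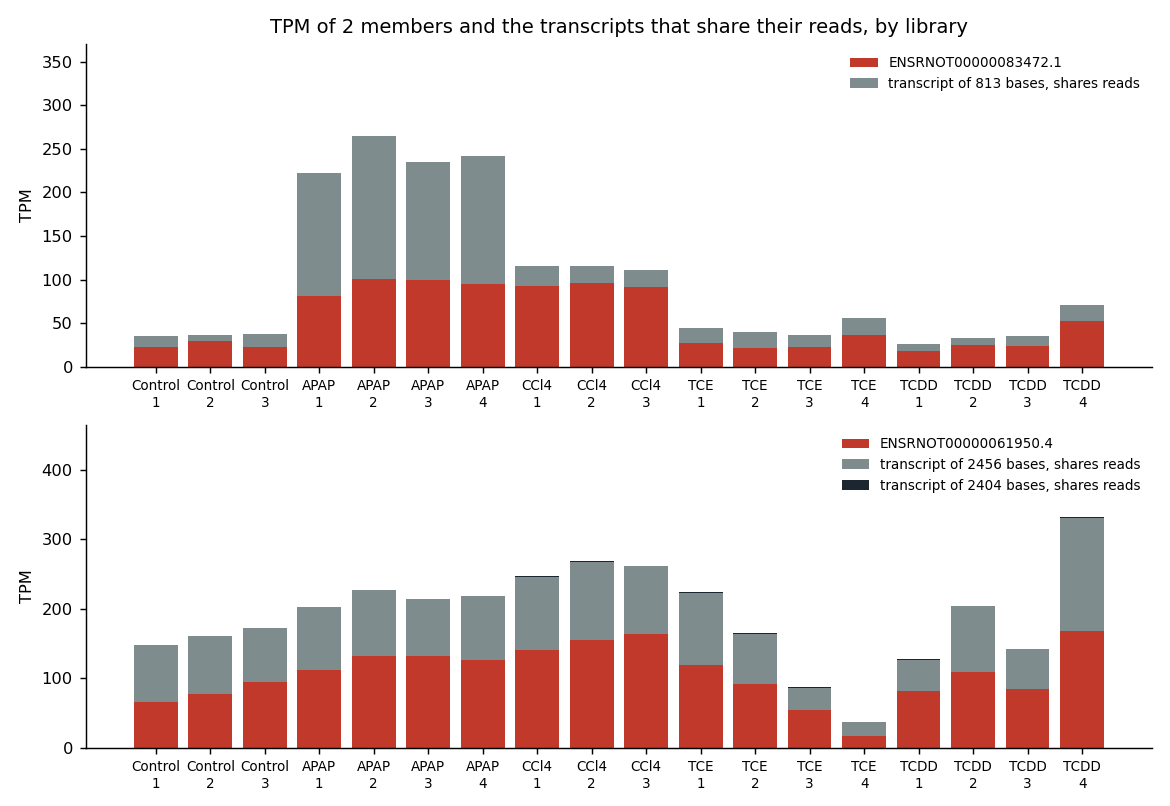
Bars give TPM (y axis, from 0) in each of the 18 libraries (x axis, group and replicate) for the 925-base and 2101-base transcripts, stacked with the transcripts that share reads with them. The 813-base partner adds 135 to 163 TPM in the APAP libraries and at most 23.95 TPM in any CCl4 library, and both parts of the lower stack fall together in TCE replicates 3 and 4.

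APAP and CCl4 were compared with each other on estimated counts, with edgeR's quasi-likelihood test across 16270 transcripts and Benjamini-Hochberg adjustment. The rule set a floor under both compounds and no direction between them, but the same libraries chose the transcripts, so the p-values for the 6 are not independent of that choice and describe these libraries. Of the 6, 2 passed an adjusted p of 0.05, against 49.9% of all tested transcripts (22.8% higher and 27.1% lower with APAP), so the share of 2 in 6 was not above the background. The 3739-base transcript was higher with APAP by 1.32 ± 0.18 log2 units (SE; adjusted p in edgeR = 1.53e-05), in 4 of 4 APAP libraries. The 2027-base transcript was higher by 0.79 ± 0.10 (SE; edgeR adjusted p = 9.29e-06), also in 4 of 4. These ENSRNOT00000067455.3 and ENSRNOT00000044788.4 calls held under the alternatives tried, with log2 values of 1.02 to 1.51 and 0.48 to 0.92. Those alternatives used the same libraries or part of them, so they are no independent support.

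The other 4 did not pass in the fit of 17 libraries. The difference was 0.35 (95% interval -0.14 to 0.85) for the 925-base, 0.48 (0.03 to 0.94) for the 640-base, 0.06 (-0.86 to 0.98) for the 2101-base and -0.29 (-0.62 to 0.03) for the 2562-base transcript, with edgeR adjusted p-values of 0.224, 0.0736, 0.924 and 0.127. Of the 6, 3 were at an unadjusted p under 0.05. The last of these 3, the 640-base transcript, ranked 8656 of all 16270 in that order. The 2562-base transcript, the next of the 6, did not reach that level and ranked 9590. The count of all transcripts at that level thus lay between these ranks. DESeq2 called 3 of the 6 and 8277 of all 16270 tested. Limma voom with sample weights called 5 of the 6 and 9047 of all. All groups share 1 estimate of the spread. EdgeR called 4 without TCDD replicate 4 (8407 of 16652 among all) and 4 without TCE replicate 4 (8370 of 16171). Without both it called 5 of the 6 and 8720 of 16568. With only the compared groups in the fit it called 5 of the 6 and 8166 of 15108. With single libraries left out it called 2 to 4 of the 6 and 7249 to 8407 of all. The 2562-base transcript ENSRNOT00000025067.6 did pass with libraries scaled to total counts (log2 value -0.60, edgeR adjusted p = 0.00221). Its TPM libraries did not overlap, as in 4 of the 6 (2 higher and 2 lower with APAP), while 58.3% of the 12808 transcripts were separate between these compounds, 9.95% higher and 48.4% lower with APAP.

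TCDD served as the compound outside the rule. Against the control, 0 of the 6 were called by edgeR, against 1.68% of all tested transcripts (273 calls). That count ran from 0 without Control replicate 1 or TCDD replicate 3 to 1697 without Control replicate 3. At an unadjusted p under 0.05 were 0 of the 6 and 3205 of the 16270 tested. DESeq2 called 0 of the 6 and 1215 of all, and limma voom 0 of the 6 and 3655 of all. All 6 had overlapping TPM ranges between TCDD and the control, where 24.2% of the 12808 transcripts were separate. The control libraries also chose the transcripts, so this comparison is not independent of the choice. With all 18 libraries edgeR called 0 of the 6 as well, against 4.35% of all tested transcripts.

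The TCDD values hold a single high library for several of the 6. The 925-base transcript ENSRNOT00000083472.1 stood at 25.4, 23.3 and 52.6 TPM in TCDD replicates 2 to 4, and at 18.5 TPM in replicate 1. The fitted difference from the control was 0.38 ± 0.27 on the log2 scale (SE; 95% interval -0.20 to 0.96), and -0.15 without replicate 4. The 640-base transcript ENSRNOT00000025988.4 stood at 988, 1071 and 1952 TPM (739 TPM in replicate 1), with a difference of 0.27 ± 0.23 (SE; -0.21 to 0.76) and of -0.17 without replicate 4. In both, replicates 2 and 3 were at the control level and replicate 4 lay between the control and the APAP and CCl4 libraries or among them.

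The 2101-base transcript ENSRNOT00000061950.4 had the highest TCDD ratio, 1.53, from 109.2, 84.5 and 168.6 TPM (81.3 TPM in replicate 1). Its difference of 0.53 ± 0.47 (SE; 95% interval -0.47 to 1.52) was 0.15 without replicate 4. The 2027-base transcript ENSRNOT00000044788.4 stood at 57.4, 52.9 and 72.4 TPM (35.8 TPM in replicate 1), a difference of 0.16 ± 0.11 (SE; -0.07 to 0.39). The 3739-base transcript ENSRNOT00000067455.3 stayed within the control range at 16.2, 15.0 and 17.3 TPM (7.99 TPM in replicate 1), with a difference of -0.16 ± 0.19 (SE; -0.56 to 0.25). The 2562-base transcript ENSRNOT00000025067.6 stood at 502, 484 and 336 TPM (296 TPM in replicate 1), and there replicates 2 and 3 were above and replicate 4 below the 3 control libraries (difference -0.03 ± 0.16, SE; -0.38 to 0.32). The intervals allow rises of up to 1.52 log2 units in the 2101-base transcript and up to 0.25 to 0.96 in the others, so the data show no rise and cannot tell one of that size from none.

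Between TCDD and TCE edgeR called 0 of the 6 and 0% of all tested transcripts. At an unadjusted p under 0.05 were 0 of the 6 and 412 of the 16270 tested. DESeq2 called 0 of the 6 and 5 of all, and limma voom 0 of the 6 and 0 of all. Of the 6, 0 had separate TPM ranges in these groups, against 3.34% of the 12808. The rule limits TCE and not TCDD. The differences ran from -0.04 ± 0.18 (SE) for the 3739-base to 0.77 ± 0.43 (SE) for the 2101-base transcript, whose 95% interval was -0.16 to 1.69. Without replicate 4 of both compounds that transcript's difference was 0.06.

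**Figure D4:**
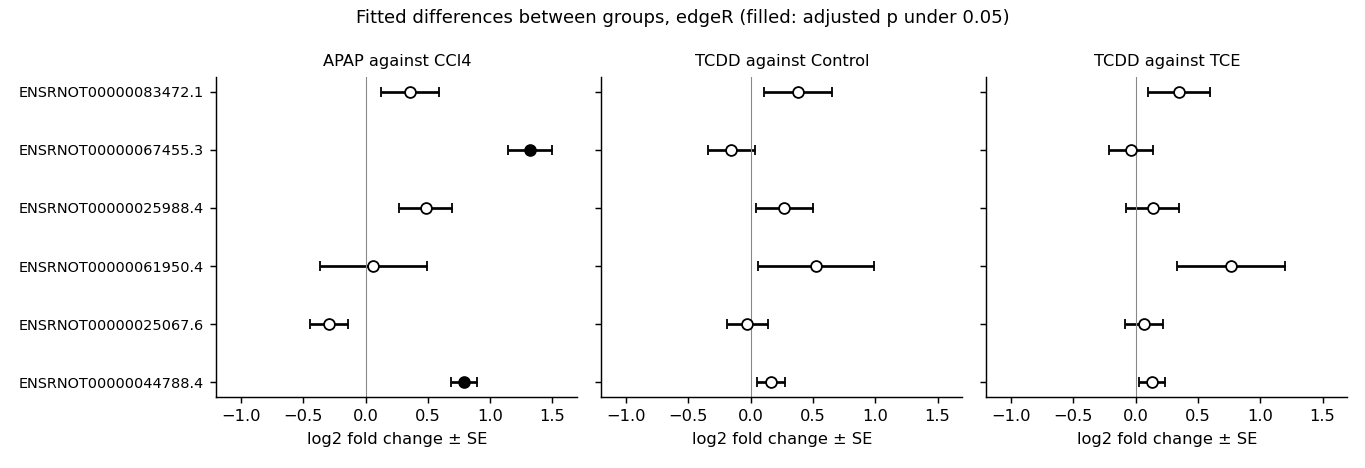
Points give the fitted log2 fold change (x axis) of each of the 6 transcripts (y axis) with its SE, for APAP against CCl4, TCDD against Control and TCDD against TCE. The filled points, the 3739-base and 2027-base transcripts in APAP against CCl4 (1.32 and 0.79), passed an adjusted p of 0.05; open points did not.

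TCE replicate 4 lay outside the range of TCE replicates 1 to 3 in 5 of the 6, where 72.8% of the 12808 transcripts did so, and by more than 1.5-fold from their mean in the same 5, where 17.5% did. The TCE mean that helped to choose the 6 includes replicate 4, so these shares are a description without a test. TCE replicate 4 was at 1.55, 1.78 and 1.62 times the mean of replicates 1 to 3 in the 925-base, 3739-base and 640-base transcripts. It was at 0.197 and 0.646 times in the 2101-base and 2562-base transcripts. TCDD replicate 4 lay outside the range of replicates 2 and 3 in all 6, where 80.1% of transcripts did, and beyond 1.5-fold in 3, where 16.3% did, at 2.16, 1.90 and 1.74 times in the 925-base, 640-base and 2101-base transcripts. Both libraries were thus above the range of the others in the 925-base, 640-base and 3739-base transcripts and below it in the 2562-base transcript. They went opposite ways in the 2101-base transcript. TCDD replicate 4 stayed within 1.5-fold in the 3739-base (1.11 times) and 2562-base (0.683 times) transcripts. Without TCE replicate 4 the TCE ratios were 0.960, 0.819, 1.03, 1.11, 1.08 and 1.08 for the 925-base, 3739-base, 640-base, 2101-base, 2562-base and 2027-base transcripts, all 6 still met the rule, and 12 transcripts met it in all. The part of these libraries' other differences in the values was not tested.

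The scaling decides how high APAP stands. The median TPM ratio of the 12808 transcripts was 0.702 with APAP, 0.931 with CCl4, 1.06 with TCE and 1.06 with TCDD. Factors of the trimmed mean of M-values (TMM) are made to set counts level on the bulk of transcripts. TPM divided by these count-based factors gave medians of 0.873, 0.936, 1.00 and 1.00, so rescaled TPM was not level for APAP and CCl4. In the fit on counts of 16270 transcripts, the median log2 fold change from the control was -0.043 with APAP and -0.0067 with CCl4. TMM factors were 0.784 to 0.874 in the APAP libraries and 1.00 to 1.13 in the others. Rescaled, the APAP ratios of the 6 ran from 1.90 to 4.75, in place of 1.53 to 3.81, while their CCl4 ratios ran from 1.45 to 3.81, in place of 1.44 to 3.78. The 2101-base transcript ENSRNOT00000061950.4, higher with CCl4 than APAP in TPM (1.93 and 1.59), was level between them after rescaling (1.94 and 1.97). With TMM-rescaled TPM 20 transcripts met the rule, among them all 6.

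**Figure D5:**
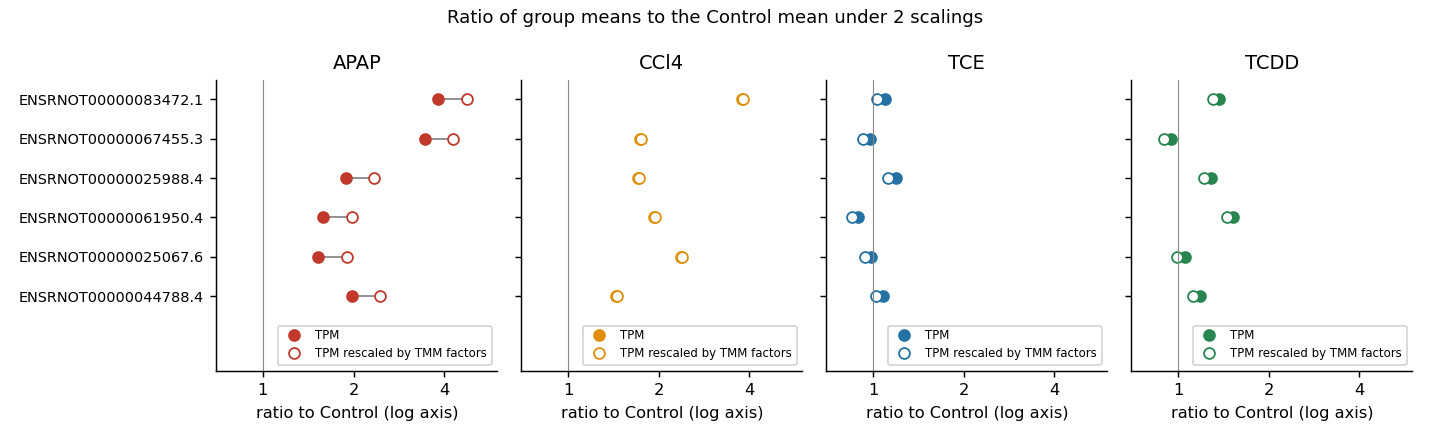
The x axis, on a log scale, gives the ratio of the group mean to the Control mean for each of the 6 transcripts (y axis), from TPM (filled) and from TPM rescaled by TMM factors (open). APAP ratios move up from 1.53 to 3.81 to 1.90 to 4.75, CCl4 ratios hardly move, and TCE and TCDD ratios move down slightly.

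Membership was narrow at the limits, and these values are given without a test. Closest inside the limits were the 2027-base transcript for CCl4 (1.44), the 2562-base transcript for APAP (1.53) and the 640-base transcript for TCE (1.19). Just outside, a transcript of 1888 bases had a CCl4 ratio of 1.39 beside an APAP ratio of 4.34, and another of 1064 bases had an APAP ratio of 1.38 with a CCl4 ratio of 1.43. A transcript of 1018 bases reached 1.44 and 1.45 with APAP and CCl4 but 1.21 with TCE. Failing a single condition were 2 transcripts for APAP, 17 for CCl4, 26 for TCE, 11 for the control mean and 7 for overlap. The 7 lost to overlap had control means of 2.51 to 5.36 TPM, well below the 17.1 TPM of the least abundant of the 6.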

How the data were processed

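RNA of 18 libraries was quantified by the authors with kallisto 0.43, per the submitters' processing notes; the labels and headers name no annotation or genome build. Per the file headers, the deposited tables give transcript length, effective length, estimated counts (expected counts, which need not be whole) and TPM. TPM as deposited served for the levels and the rule. Estimated counts were rounded and tested in edgeR 4.0.16 (R 4.3.3; filterByExpr, TMM factors, robust quasi-likelihood) in 1 fit of 17 libraries with group as the factor, without TCDD replicate 1. Standard errors came from the log2 fold change and F, and 95% intervals from the t distribution of the fit. Alternatives used DESeq2 1.42.0, limma 3.58.1 voom, other scalings, filters, blocks and left-out replicates. The members, lists and tests were chosen with earlier results of these data known. The planned gene and cell marker lists could not be applied, because 0 identifiers matched gene names, so all 6 members are given by identifier, and other transcripts by length. Replicate libraries differed by more than sampling noise (chi-square per degree of freedom at least 4.50). Each counted once in the fit, although such a difference does not show that they are independent replicates. The test was tried on simulated counts with the same spread for every transcript and no outlying library. That setting differs from these data, so it does not show how the test performs on them. Depth was lowest in TCDD replicate 1.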

Additional observations from a re-analysis of the deposited data

Results flagged for a closer look

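For the 640-base transcript ENSRNOT00000025988.4, TCE replicate 4 (1737 TPM) stood apart from the other 3 TCE libraries (1038 to 1102 TPM), with a gap of 0.908 of the whole range. Such gaps were sought in 18 groups of 4 libraries, and 1 was past Dixon's limit for 4 libraries, a rate that chance gives in about 5% of groups. The TCDD groups included TCDD replicate 1, whose low values can widen the range, so this search says little about TCDD replicate 4. The effects of APAP and CCl4 differed for the 3739-base transcript ENSRNOT00000067455.3, by 1.32 log2 units, and for the 2027-base transcript ENSRNOT00000044788.4, by 0.79 log2 units, by a test of the difference between them (edgeR adjusted p = 1.53e-05 and 9.29e-06). The libraries of both compounds also chose these transcripts, so these p-values are not independent of the choice.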

How the results depend on the processing

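The count of 6 transcripts became 15 with a ratio minimum of 1.3, 15 with a TCE maximum of 1.3, 11 with group medians, 20 with TMM-rescaled TPM and 13 without the condition on overlap, and 5 to 13 with single libraries left out (13 without Control replicate 2, 12 without TCE replicate 4, 11 without Control replicate 1 or CCl4 replicate 2). ENSRNOT00000083472.1 was lost without Control replicate 2, ENSRNOT00000044788.4 without Control replicate 3, and ENSRNOT00000025988.4 without TCE replicate 1, 2 or 3. The 2 calls between APAP and CCl4 became 5 with limma voom and 5 with only the compared groups (8166 of all 15108). They were 5 without replicate 4 of TCDD and TCE (chosen after seeing the data) and 2 to 4 with single libraries left out. Across all transcripts, TCDD calls against the control, 273 as reported, were 1215 with DESeq2, 3655 with limma voom, 3 with only the compared groups and 1 with the replicate block by title number. Leaving out Control replicate 3 gave 1697 and leaving out TCE replicate 4 gave 573, whereas 32 were left without TCDD replicate 4, 1 without Control replicate 2 and 0 without Control replicate 1 or TCDD replicate 3. The 0 calls among the 6 did not change in these fits.

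Several log2 fold changes that had passed no test changed sign. Against the control with TCDD, without both replicates 4, they were -0.15 for ENSRNOT00000083472.1, -0.17 for ENSRNOT00000025988.4, -0.028 for ENSRNOT00000044788.4 and 0.10 for ENSRNOT00000025067.6. With limma voom they were -0.038 for ENSRNOT00000025988.4, -0.0051 for ENSRNOT00000044788.4 and 0.066 for ENSRNOT00000025067.6, which was also 0.054 with total-count scaling, 0.068 with the replicate block by title number and 0.0054 with the length trend removed. Between TCDD and TCE, without both replicates 4, they were -0.031 for ENSRNOT00000083472.1, 0.083 for ENSRNOT00000067455.3, -0.13 for ENSRNOT00000025988.4 and -0.084 for ENSRNOT00000044788.4, and with limma voom 0.028 for ENSRNOT00000067455.3, -0.061 for ENSRNOT00000025988.4 and -0.054 for ENSRNOT00000044788.4. Between APAP and CCl4, ENSRNOT00000061950.4 was at -0.25 with total-count scaling.

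With single libraries left out, TCDD against the control ran from -0.15 to 0.61 for ENSRNOT00000083472.1, -0.17 to 0.46 for ENSRNOT00000025988.4, -0.12 to 0.10 for ENSRNOT00000025067.6 and -0.03 to 0.28 for ENSRNOT00000044788.4. APAP against CCl4 ran from -0.010 to 0.11 for ENSRNOT00000061950.4. TCDD against TCE ran from -0.18 to 0.58 for ENSRNOT00000083472.1, -0.14 to 0.18 for ENSRNOT00000067455.3, -0.30 to 0.33 for ENSRNOT00000025988.4, -0.085 to 0.20 for ENSRNOT00000025067.6 and -0.06 to 0.25 for ENSRNOT00000044788.4. The causes were not tested. By title number, deviations of same-numbered libraries from their group means correlated at -0.036 to 0.125. By the number in the file name they correlated at -0.053 to 0.125. With either numbering, only TCDD replicate 4 with TCE replicate 4 was above 0.1, so the numbers were not taken to pair the libraries. Between APAP and CCl4, the replicate block by title number or by file-name number (chosen after seeing the data) called 3 of the 6. ENSRNOT00000025988.4 passed in addition. Among all 16270 tested, these blocks called 7935 and 7649. Elsewhere they called 0 of the 6, beside 1 and 0 of all for TCDD against Control and 0 of all for TCDD against TCE.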
